A study of Mus musculus with 12 samples.

Results

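Hemopexin-null liver was compared with wild-type liver on 4 of the 12 spotted cDNA arrays of the study, the replicates titled Hx null. Each array hybridised 2 RNA pools together, one from Hx-null mice (Hp+/Hx-/-) and one from wild-type mice (Hp+/Hx+), and gave a log ratio for each spot. The null pool carried the dye Cy5 on replicates 1 and 2 and Cy3 on replicates 3 and 4. The other 8 arrays set Hp-null (Hp-/-Hx+) or HpHx-null (Hp-/-Hx-/-) liver against wild-type liver, 4 arrays each, and entered the fit so that all 12 shared one estimate of the spread. All genotypes were adult littermates on a mixed C57/BLJ6 X 129Sv background, perfused with PBS. Each genotype was 1 pool of livers from at least 5 mice. The 4 arrays were therefore repeated measurements of 1 pair of pools, and p-values measure the spread between arrays and not between mice. In pooled liver, a change in the RNA per cell and a change in the share of a cell type cannot be told apart.

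Hemopexin is a plasma glycoprotein made by hepatocytes that binds free heme and carries it to the receptor LRP1, after which heme oxygenase breaks the heme down and ferritin stores the iron. Haptoglobin binds hemoglobin that leaves red cells and passes it to macrophages. Loss of hemopexin thus removes the main plasma carrier of free heme, and the comparison addressed how the liver transcriptome of such mice differed from that of wild-type littermates.

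The array carried 15600 cDNA clones, each spotted as a neighbouring pair, and 2151 clones had a value on at least 1 array. Replicates 1 to 4 of Hx-null held 4050, 3834, 3873 and 3088 spots, and the duplicate spots correlated at r from 0.927 to 0.964 across spots. No annotated spot named Hpx or Hp, so the deleted gene could not be used to check the labels. Averaging clones of 1 gene left 2052 features, of which 918 were named genes. Of these features 1865 had a value on at least 3 Hx-null arrays and were tested. Gene names rest on an inferred numbering, since the probe table fitted the values only when read from its last spot to its first. Read that way, 205 pairs of clones of 1 symbol correlated across arrays with a median r of 0.858. The direct order gave 63 pairs with a median r of -0.291.

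The direction of the deposited ratios was not settled. Replicates 1 and 2 correlated with each other at r = 0.834 and replicates 3 and 4 at r = 0.84, but arrays of opposite dye correlated at r from -0.651 to -0.523 across features. Against arrays of the other nulls with the same labelled dye, r ran from -0.684 to 0.794. The 12 arrays fell into opposed sets by the sign of the first component, which held 71.5% of the sum of squares. In Hx-null the sets were the labelled dyes; in the other nulls they were not. The fit therefore had a term for the set, called the set term below, with 1 value per feature fitted over all 12 arrays. In Hx-null it is added on replicates 1 and 2 and subtracted on replicates 3 and 4. The difference between the sets within the 4 Hx-null arrays was also taken directly, over 1434 features with all 4 values. It held 76.9% of the sum of squares, the mean ratio 14.4% and the remainder 8.71%. Ratios are given with the deposited sign, read as log2, and no direction is drawn from them. A turned ratio, from values multiplied by -1 where the null pool was labelled Cy3, is given beside each as the other reading. It was fitted over the 12 arrays with a term for the labelled dye and no set term. With all 4 Hx-null values it rests on those values alone. With 3, it also depends on the dye term fitted over all 12 arrays and on which array is missing.

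With the deposited sign, 39 of 1865 features (2.09%) passed limma's moderated test with the set term at an adjusted p under 0.05. Of these, 35 (1.88%) were positive and 4 (0.214%) negative. The median ratio over all tested features was -0.02, with a 5th percentile of -0.21 and a 95th of 0.36. The 39 features comprised 13 named genes, 12 clones of 1 probe entry that joins alpha-globin and histone genes, 1 clone of another joined entry (Gapdh-ps15, Gm5523 and Gapdh, ratio 0.43), and 13 clones without a symbol. With the labelled dye in place of the set, 12 features (0.643%) passed, all positive and all among the 39. These were 8 clones of the alpha-globin entry, 3 clones without a symbol and Wdr7. The count of 39 became 24 without Hx-null replicate 2, 25 without Hx-null replicate 3, 61 without Hp-null replicate 4 and 87 without HpHx-null replicate 3. The count of 12 became 0 when Hx-null replicate 1, 2 or 3 was left out. Ordinary least squares passed 19 features with the set term.

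The highest ratio of all, and most of those above 1, came from clones of the entry that joins Hba-a2, Hba-a1 and H3f3a, each positive on every array that measured it. Hba-a1 and Hba-a2 encode the alpha chain of hemoglobin in red cells, and H3f3a encodes the replication-independent histone H3.3. Which of these transcripts a clone measured was not resolved, and near-identical alpha-globin copies would cross-hybridise. The RefSeq promoter window of Hba-a1 (GRCm38.p6, chr11:32283422-32283671, plus strand) is shown because the entry is the one around which the results turn, with capitals marking the letters GATAAG, the core recognised by GATA factors of red cell precursors.

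Hba-a1: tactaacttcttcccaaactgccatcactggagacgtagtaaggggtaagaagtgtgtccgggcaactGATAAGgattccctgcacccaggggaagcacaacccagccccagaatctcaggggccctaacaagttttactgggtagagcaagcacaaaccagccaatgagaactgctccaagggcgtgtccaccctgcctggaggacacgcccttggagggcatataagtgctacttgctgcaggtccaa

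The Hba-a2 window (chr11:32296242-32296491, plus strand) matched it at 247 of 247 bases with an offset of 3. The letters GATAAG were searched on both strands and began 182 bases before the Hba-a1 start and 185 bases before the Hba-a2 start. They lay in 2151 of 32851 RefSeq windows of this length (6.55%). Counted by gene, with a match in any listed window, they lay in 31 of 696 tested genes (4.45%). Of the 10 called named genes with a window, 0 had a match. A match is a description of the letters and was not tested as a binding site.

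Of 18 measured clones of the entry, 16 were tested and 12 passed, all positive, with ratios from 0.70 to 1.53. Spot 24219 had the highest ratio, with values of 1.61, 1.499 and 1.40 on replicates 1, 2 and 3 and none on replicate 4. Its fitted ratio was 1.53 ± 0.11 (SE, n = 3 arrays; limma adjusted p = 2.9e-05). Every array that measured it lay far above 0 whichever dye the null pool carried, and its turned ratio was 0.40. Spot 11831 was the called clone measured on all 4 arrays, at 1.04, 1.24, 1.15 and 0.72. Its ratio was 1.04 ± 0.10 (SE, n = 4 arrays; limma adjusted p = 7.64e-05), and its turned ratio was 0.10.

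The entry did not behave as one. Spots 24847, 19055 and 5359 were the 3 clones of the entry with a value on all 12 arrays, and their ratios were 0.18, 0.07 and 0.06, with limma adjusted p of 0.219, 0.756 and 0.809. Spot 6631 had a ratio of 0.77 but did not pass (limma adjusted p = 0.0559). The 12 clones tested on 3 arrays had a median ratio of 1.17, against 0.12 for the 4 clones on 4 arrays, so high ratios went with missing values. By array, 18, 14, 16 and 8 clones had a value on replicates 1 to 4, with medians of 0.95, 0.99, 1.19 and 0.41. Over the 16 tested clones the turned ratio had a median of 0.02 and ran from -0.33 to 0.40. For the 12 clones on 3 arrays, it also depends on the fitted dye term and on which array is missing. The part of the missing values in these ratios was not tested.

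**Figure D1:**
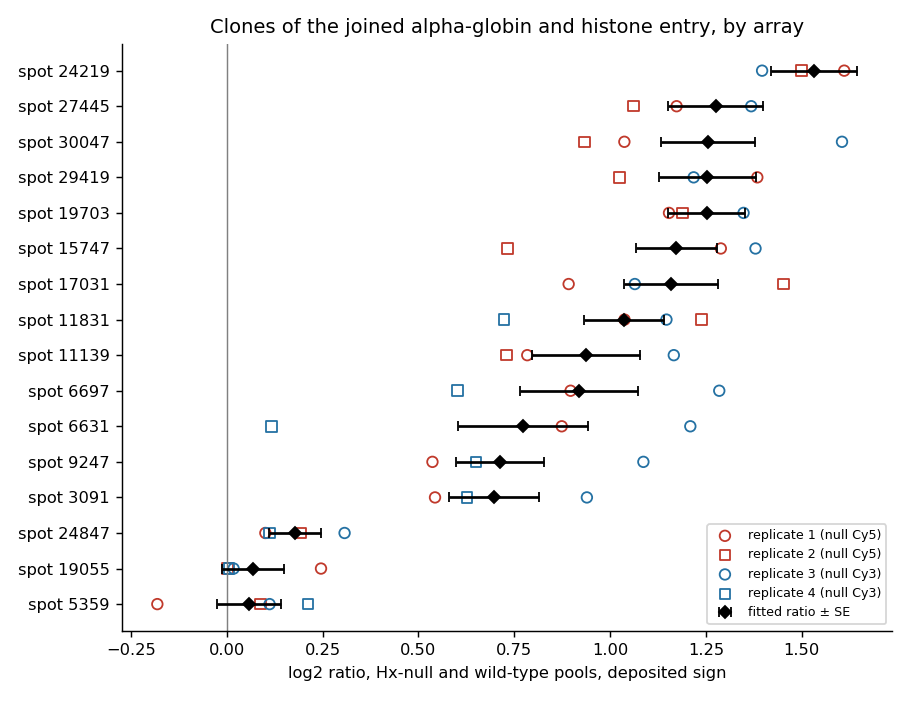
Centred log2 ratio (horizontal axis, deposited sign) of each tested clone of the joined Hba-a2, Hba-a1 and H3f3a entry on Hx-null replicates 1 and 2 (null pool Cy5, red) and 3 and 4 (null pool Cy3, blue), with the fitted ratio and its SE in black. Most clones lie above 0.5 on both dyes, and spots 24847, 19055 and 5359 lie near 0.

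Wdr7, a WD repeat protein that associates with the vacuolar proton pump, was the named gene with the smallest p-value. It gave 1.24, 1.02 and 1.249 on replicates 1, 2 and 3, with no value on replicate 4, so every array that measured it was positive on both dyes. Its ratio was 1.18 ± 0.13 (SE, n = 3 arrays, limma adjusted p = 0.000212, or 0.00835 with the labelled dye). That is 2.27-fold on the deposited reading only. The call held when each of the 12 arrays was left out, and the turned ratio was 0.18. With no value on replicate 4, that turned ratio also depends on the dye term fitted over the 12 arrays. Wdr7 rested on 1 clone.

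By the correlation with the median of the alpha-globin entry's clones across arrays, the other called features most like that entry were spot 25143 (r = 0.969 over 11 arrays), Wdr7 (0.966 over 10), spot 8627 (0.954 over 11), spot 15129 (0.924 over 8) and spot 27401 (0.883 over 11). These values are a description, since called features share the Hx-null arrays on which they were called. The clone at spot 25143, without a symbol, gave 1.37, 1.02 and 1.41 on replicates 1 to 3. Its ratio was 1.33 ± 0.11 (SE, n = 3 arrays; limma adjusted p = 2.9e-05), and its turned ratio was 0.18. Spot 8627 gave 1.17, 0.998, 1.28 and 0.67 on the 4 arrays, with a ratio of 1.03 ± 0.12 (limma adjusted p = 0.000282) and a turned ratio of 0.06. Nudt7, at r = -0.601 over 11 arrays, ran the other way.

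On the negative side, the 3 named genes were Gstp1, Nudt7 and Ncbp2. Gstp1, the pi class glutathione S-transferase that conjugates electrophiles and is expressed more in male than in female mouse liver, had the lowest ratio of all tested named genes that passed. Its RefSeq promoter window (GRCm38.p6, chr19:4037913-4038162, minus strand) is shown because it holds the letters TGANTCAGC, in capitals, the form of antioxidant element bound by small Maf heterodimers.

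Gstp1: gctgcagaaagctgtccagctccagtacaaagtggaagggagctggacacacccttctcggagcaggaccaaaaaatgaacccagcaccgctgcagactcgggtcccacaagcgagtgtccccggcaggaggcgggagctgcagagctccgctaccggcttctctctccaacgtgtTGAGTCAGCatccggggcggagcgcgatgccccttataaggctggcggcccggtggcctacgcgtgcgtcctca

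The match began 74 bases before the annotated start. TGANTCAGC, searched on both strands, lay in 335 of 32851 windows (1.02%). Counted by gene, with a match in any listed window, it lay in 11 of 696 tested genes (1.58%). Of the 10 called named genes with a window, 2 had a match, Gstp1 and Smap1. Gstp1 gave 0.01, -0.46, -1.56 and -1.44 on the 4 arrays, so replicates 3 and 4 were far below 0 and replicate 1 was at 0. The fitted ratio was -0.86 ± 0.13 (SE, n = 4 arrays, limma adjusted p = 0.00117), which is 1.82-fold on the deposited reading. It remained called without each of the 12 arrays in turn, but the adjusted p was 0.841 with the labelled dye and the turned ratio was 0.64, of the opposite sign. Gstp2 is a near-identical copy, so the clone may measure both.

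Nudt7, a peroxisomal diphosphatase that breaks down coenzyme A, gave -0.47, -0.72, -0.97 and -0.67. All 4 arrays were negative on both dyes, which sets it apart from Gstp1. Its ratio was -0.71 ± 0.10 (SE, n = 4 arrays, limma adjusted p = 0.00117), which is 1.63-fold on the deposited reading. It stayed called without each of the 12 arrays. With the labelled dye the adjusted p was 0.0679, and the turned ratio was 0.11. Ncbp2, the small subunit of the nuclear cap-binding complex, gave -0.55, -0.87, -0.12 and -0.09, nearer to 0 on the Cy3 arrays. Its ratio was -0.41 ± 0.08 (SE, n = 4 arrays; limma adjusted p = 0.0254) and its turned ratio -0.30. That call was lost without Hx-null replicate 2, 3 or 4 or Hp-null replicate 1.

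Among enzymes of methionine metabolism, Bhmt passed with a positive ratio. Bhmt, betaine-homocysteine methyltransferase, remakes methionine from homocysteine in hepatocytes. It gave 1.35 and 1.85 on replicates 1 and 2 and -0.40 and -0.17 on replicates 3 and 4, so the sign followed the dye. The fitted ratio was 0.66 ± 0.09 (SE, n = 4 arrays, limma adjusted p = 0.00102), which is 1.58-fold on the deposited reading. No single array ended the call, whereas the adjusted p was 0.9998 with the labelled dye and the turned ratio was larger, 0.94. Of the 5 tested members of the methionine, cysteine and 1-carbon list, Bhmt alone passed, and 4 were positive, with a list median of 0.31 and a turned median of 0.44. Mat1a, the liver methionine adenosyltransferase, gave 0.82, 0.95 and 0.21 on replicates 1 to 3 and a ratio of 0.49 (limma adjusted p = 0.0618). Shmt2, the mitochondrial serine hydroxymethyltransferase, was lowest at -0.16.

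Bche, the butyrylcholinesterase that hepatocytes secrete into plasma, was the member of the secreted plasma protein list that passed. Its values were 0.87, 1.75, 0.05 and 0.23, all positive and higher on the Cy5 arrays. The ratio was 0.73 ± 0.16 (SE, n = 4 arrays; limma adjusted p = 0.0251) and the turned ratio 0.59. The call was lost without Hx-null replicate 2, 3 or 4. Serpina1e, an alpha-1-antitrypsin of male-biased expression, had a ratio of 0.66 and did not pass (limma adjusted p = 0.0779), with 1.41, 2.64, -0.83 and -0.59 on the arrays. Serpina1e passed in 5 alternatives: with the loadings of the first component (limma adjusted p = 0.0461), with the replicate block (0.03003), without centring (0.0198), without Hx-null replicate 1 (0.0228) and without HpHx-null replicate 3 (0.0456). The other members were Ttr (0.21), Alb (0.20) and Apoa1 (-0.05). The list median was 0.21 over 5 tested members. Turned, all 5 members were positive with a median of 1.03, led by Serpina1e at 1.37 and Alb at 1.30.

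The remaining 7 called genes were positive with the deposited sign. Prex2, an exchange factor that activates Rac, gave 1.71 and 2.85 on replicates 1 and 2 and 0.01 on replicate 4, with no value on replicate 3. Its ratio of 1.23 ± 0.22 (SE, n = 3 arrays; limma adjusted p = 0.0102) thus rested on the Cy5 arrays and was lost without replicate 2, and the turned ratio was also 1.23. Mtfr1l, a regulator of mitochondrial shape, had the same pattern, at 1.48, 1.72 and -0.10 on replicates 1, 2 and 4. Its ratio was 0.83 ± 0.18 (limma adjusted p = 0.0254), its turned ratio 0.93, and it was lost without Hx-null replicate 1 or 2.

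In Hnrnpr, Trmt5 and Smap1 the Cy3 arrays were the higher ones, and the turned ratio changed sign. Hnrnpr, an RNA-binding protein of spliceosomal complexes, gave -0.16, 0.16, 1.14 and 1.06, with a ratio of 0.55 ± 0.10 (limma adjusted p = 0.0155) and a turned ratio of -0.55. Trmt5, a tRNA methyltransferase, gave 0.13, 0.56, 0.95 and 0.82, with a ratio of 0.61 ± 0.14 (limma adjusted p = 0.0272) and a turned ratio of -0.27. Smap1, an Arf GTPase-activating protein of clathrin-dependent endocytosis, gave 0.17, 0.47, 0.67 and 0.70, with a ratio of 0.50 ± 0.09 (limma adjusted p = 0.0102) and a turned ratio of -0.18. Trmt5 and Smap1 were positive on 4 of 4 arrays. Each of the 3 calls was lost without Hx-null replicate 2, 3 or 4.

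Tomm70a and Lima1 differed little between dyes. Tomm70a, an import receptor of the outer mitochondrial membrane, gave 0.39, 0.40, 0.57 and 0.40, all positive, with replicate 3 apart from the others. Its ratio was 0.44 ± 0.09 (SE, n = 4 arrays; limma adjusted p = 0.0213) and its turned ratio -0.04, and leaving out any Hx-null array ended the call. Lima1, which cross-links actin filaments, gave 0.28, 0.67 and 0.50 on replicates 1 to 3. Its ratio was 0.52 ± 0.12 (SE, n = 3 arrays; limma adjusted p = 0.0422) and its turned ratio 0.09, and leaving out any of 8 arrays ended the call: each Hx-null array, Hp-null replicates 1 and 2, and HpHx-null replicates 1 and 4. Except for Wdr7, no named gene passed with the labelled dye. The nearest named genes short of the threshold were Kif11, a mitotic kinesin, at -0.36 and Uhrf1, a factor of maintenance DNA methylation, at -0.34, both with a limma adjusted p of 0.0559.

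**Figure D2:**
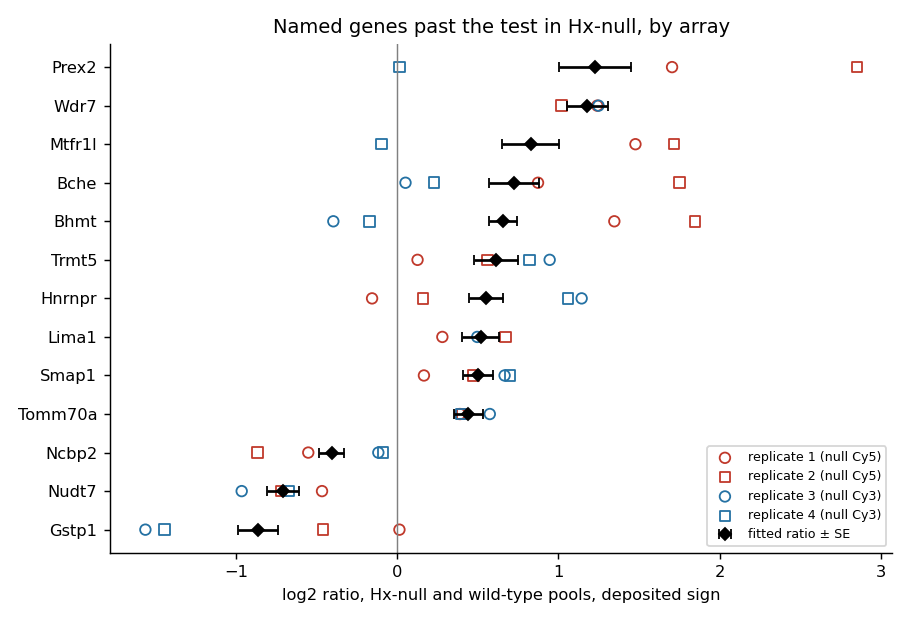
Centred log2 ratio (horizontal axis, deposited sign) of the 13 named genes that passed, on Hx-null replicates 1 and 2 (null pool Cy5, red) and 3 and 4 (null pool Cy3, blue), with the fitted ratio and its SE in black. Wdr7, Tomm70a and Nudt7 keep 1 sign on every array that measured them with little distance between dyes, whereas Prex2, Mtfr1l, Bhmt, Hnrnpr and Gstp1 separate by dye.

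Genes of heme and iron metabolism were few among the measured spots, and 0 of the 9 tested members passed limma's test. At an unadjusted p under 0.05 the count was 3, against 252 of all 1865 features (13.5%), and by least squares with adjustment it was 0. Hebp1 passed without HpHx-null replicate 3 (adjusted p = 0.019) and on the 4 Hx-null arrays alone (0.0172), and Ftl1 passed with the loadings of the first component (0.0288). Of heme synthesis only Urod, uroporphyrinogen decarboxylase, was measured, with a ratio of -0.00 ± 0.07 (SE; limma adjusted p = 0.982). Of heme breakdown and uptake, Hebp1, a cytosolic heme-binding protein, gave 0.59, 0.91, -0.07 and 0.04. Its ratio was 0.37 ± 0.15 (limma adjusted p = 0.269), positive mainly on the Cy5 arrays, and its turned ratio 0.38. Pgrmc1, a membrane protein that binds heme, had a ratio of -0.20 (limma adjusted p = 0.476) and a turned ratio of 0.35.

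Among iron genes, Ftl1, the ferritin light chain, gave 0.29, 0.40, -0.82 and -0.97 as the mean of 6 clones. The Cy5 arrays lay above 0 and the Cy3 arrays below. The ratio was -0.27 ± 0.07 (SE, n = 4 arrays; limma adjusted p = 0.0618), and the turned ratio was 0.62, of the opposite sign. The 6 clones had mean ratios from -0.56 to -0.14 over the 4 arrays, so all had the same deposited sign. Fth1, the ferritin heavy chain, gave -0.09, -0.19 and -0.48 on replicates 1, 3 and 4, with a ratio of -0.21 (limma adjusted p = 0.414) and a turned ratio of 0.11.

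Ltf, the iron-binding lactoferrin of neutrophils, gave -0.26, -0.11, -0.25 and -0.14, negative on 4 of 4 arrays, with a ratio of -0.19 (limma adjusted p = 0.236) and a turned ratio of 0.01. Tfrc, the transferrin receptor, which falls when cells hold more iron, had a ratio of 0.01 ± 0.08 (SE; limma adjusted p = 0.956) and a turned ratio of -0.16. The metallothioneins Mt1 and Mt2, metal-binding proteins that heme and metals induce, had ratios of 0.07 and -0.01 (limma adjusted p = 0.713 and 0.979) and turned ratios of 0.04 and -0.18. No globin or red cell gene was measured under a single symbol.

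Of the 30 gene lists, 6 had no tested member and 8 had a member that passed. The antioxidant and glutathione list had 10 tested members, of which Gstp1 passed. Its median ratio was -0.11 with 8 members negative, and the turned median was 0.63 with 8 positive. Gstm2, a mu class glutathione S-transferase, was highest at 0.34. Gstp1 and Nudt7 were 2 of the 3 tested members of the male-biased liver list. The other member, Serpina1e, was positive at 0.66, and all 3 turned ratios were positive. The ER stress and heat shock list had 7 tested members from Hspa8, a constitutive chaperone (-0.21), to Pdia3, a disulfide isomerase (0.23), none called. Its median was 0.06, and all 7 turned ratios were positive, with a median of 0.25.

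Lists of general cell functions had medians near that of all features. The 23 tested ribosomal proteins ran from Rpl37a at -0.31 to Rpl39 at 0.20, with a median of -0.07, 16 of them negative and none called. The 19 oxidative phosphorylation genes had a median of -0.01, from Ndufaf6, an assembly factor (-0.20), to Atp5md, a subunit of ATP synthase (0.46, limma adjusted p = 0.0618), none called. Atp5md passed in 7 alternatives, with adjusted p from 0.0106 to 0.0437, among them those without Hp-null replicate 4 (0.019) and without HpHx-null replicate 3 (0.0287). Mitochondrial import and ribosome genes had a median of -0.03 over 9 members. Tomm70a passed there, and the higher Mrps25 (0.50), a mitochondrial ribosomal protein, did not (limma adjusted p = 0.147), though it passed without Hp-null replicate 4 (0.0487) and on the Hx-null arrays alone (0.0021). RNA splicing and binding genes (17 tested, Hnrnpr called) had a median of 0.02 and a minimum of -0.18 in Prpf38b, a splicing factor. Vesicle traffic genes (18 tested, Smap1 called) had a median of -0.05 and a minimum of -0.26 in Rab11a, a GTPase of recycling endosomes.

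Among smaller lists without a call, translation factors ran from Eef2 (-0.14) to Eif2b5 (0.13), and proteasome and ubiquitin genes from Psmd7 (-0.15) to Psmc1 (0.17). Cytoskeletal genes ran from Actg1 (-0.11) to Actb (0.27), whose 5 clones disagreed, with mean ratios from 0.06 to 0.57. Cell cycle and growth genes ran from the replication helicase subunit Mcm3 (-0.16) to the anaphase-promoting subunit Anapc4 (0.35), and glucose genes from Pfkl (-0.13) to Gapdh (0.07). Turned medians were -0.03 for ribosomal proteins, -0.10 for oxidative phosphorylation, -0.15 for RNA splicing and binding, -0.21 for vesicle traffic, -0.20 for proteasome and ubiquitin, -0.15 for cytoskeletal, -0.62 for growth and cell cycle and 0.10 for translation genes, beside -0.02 over all features. The counts of calls by list were too small to be read against the background of 2.09%.

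**Figure D3:**
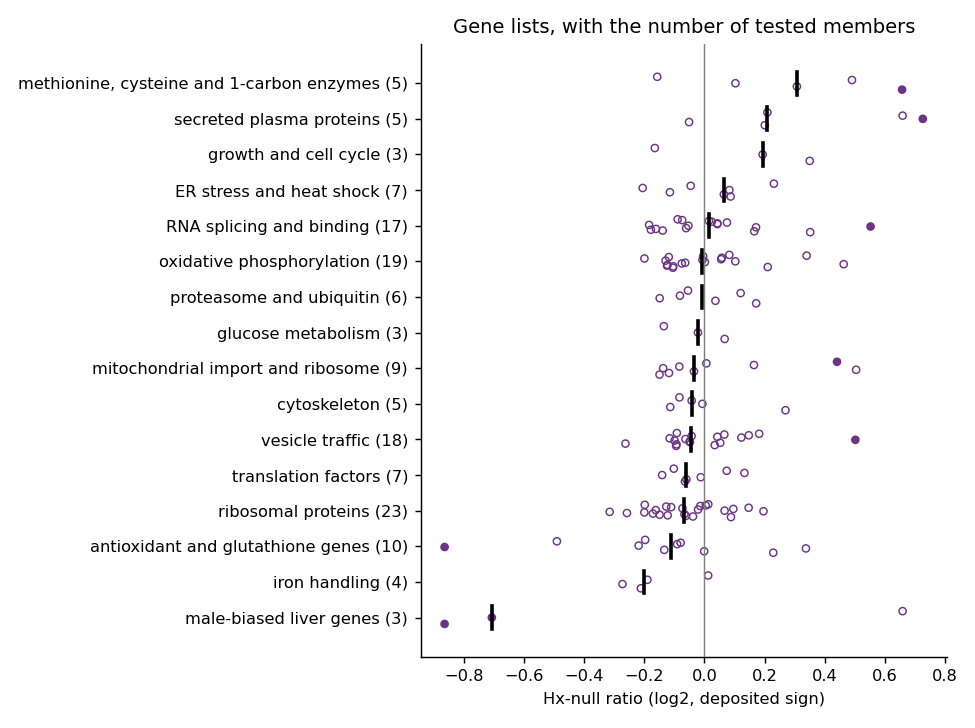
Fitted Hx-null log2 ratio (horizontal axis, deposited sign) of each tested member of the 16 lists with at least 3 tested members, whose number is in brackets. Filled points passed limma's test, open points did not, and black bars are list medians, which run from -0.71 to 0.31.

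Cell type markers were also read, though a ratio between liver pools cannot check the liver label. All 4 annotated hepatocyte markers (Alb, Apoa1, Serpina1e and Ttr) were measured, and none passed. Of macrophage markers, Fcgr1, an Fc receptor, gave 0.57, 0.29, 0.47 and 0.39, positive on 4 of 4 arrays, with a ratio of 0.43 ± 0.11 (limma adjusted p = 0.0635) and a turned ratio of -0.00. Fcer1g, the signalling chain of Fc receptors, was at -0.04. Ltf was the neutrophil marker measured. Of the erythroid markers, 3 were annotated under a single symbol and 0 were measured. The share of blood or of other cells in the pools, beside the alpha-globin entry's ratios, was therefore not tested.

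Features of Hx-null liver were compared with Hp-null liver by the difference of the fitted ratios, in which the shared wild-type pool cancels. Of 1848 features, 21 (1.14%) passed, all lower in Hp-null with the deposited sign, and 10 were clones of the alpha-globin entry. The count was 71 without Hp-null replicate 3 and 34 without HpHx-null replicate 3. Spot 24219 gave 0.31, -0.25, -0.27 and 0.04 on Hp-null replicates 1 to 4, below its 3 Hx-null values. The Hp-null minus Hx-null difference was -1.58 ± 0.15 (SE; limma adjusted p = 0.000383). Wdr7 gave 0.01, -0.32, 0.06 and -0.12 in Hp-null, again with no overlap, and a difference of -1.27 ± 0.17 (limma adjusted p = 0.00137).

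Ftl1 was lower still in Hp-null, at -1.55, -0.45, -0.28 and -1.47, with a fitted ratio of -0.94 and a difference from Hx-null of -0.66 ± 0.10 (SE; limma adjusted p = 0.00183). On single arrays the ranges overlapped, and both nulls held arrays of both sets. Mat1a, fitted at 0.49 in Hx-null against -0.33 in Hp-null, differed by -0.82 ± 0.17 (limma adjusted p = 0.0435). Agbl5, a tubulin deglutamylase named here after its values were seen, differed by -0.74 ± 0.13 (limma adjusted p = 0.00596). The ratios were also turned and fitted with the labelled dye in place of the set term. In that fit 0 of 1848 features passed limma's test (0%) and 47 had an unadjusted p under 0.05. The turned differences were -0.33 for spot 24219, -0.25 for Wdr7, -0.68 for Ftl1, -0.52 for Mat1a and -1.04 for Agbl5.

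The double null was compared in the same way. Of 1654 features, 3 (0.181%) passed for HpHx-null minus Hx-null: spots 24219 (-1.12), 25143 (-0.94) and 15747 (-0.94), each with limma adjusted p between 0.0218 and 0.0236. The count ran from 0 to 5 when an array was left out, was 0 by least squares and was 0 with the labelled dye. Spot 24219 gave 0.16, 0.49 and 0.51 on HpHx-null replicates 1, 2 and 4, all below its Hx-null values. Wdr7 gave 0.15, 0.47 and 0.84, and its difference of -0.68 did not pass (limma adjusted p = 0.392). With the ratios turned and the labelled dye in place of the set term, 0 of 1654 features passed limma's test (0%). In that fit 94 had an unadjusted p under 0.05, and spot 24219 differed by -0.53.

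The 3 nulls share the wild-type pool, so their ratios are given side by side. Over tested clones of the alpha-globin entry the median was 0.99 (Hx-null, 16 clones), -0.11 (Hp-null) and 0.39 (HpHx-null). Fewer of these clones had a fitted ratio in Hp-null and fewest in HpHx-null, so the medians are not over the same clones. In the order Hx-null, Hp-null and HpHx-null, Gstp1 had ratios of -0.86, -0.59 and -0.92, and Nudt7 had -0.71, -0.36 and -0.63. Bhmt had 0.66, 0.18 and 0.42, and Bche had 0.73, 0.16 and 0.59. Smap1 was at 0.50, 0.64 and 0.59. For these 5 genes, neither difference from Hx-null passed.

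**Figure D4:**
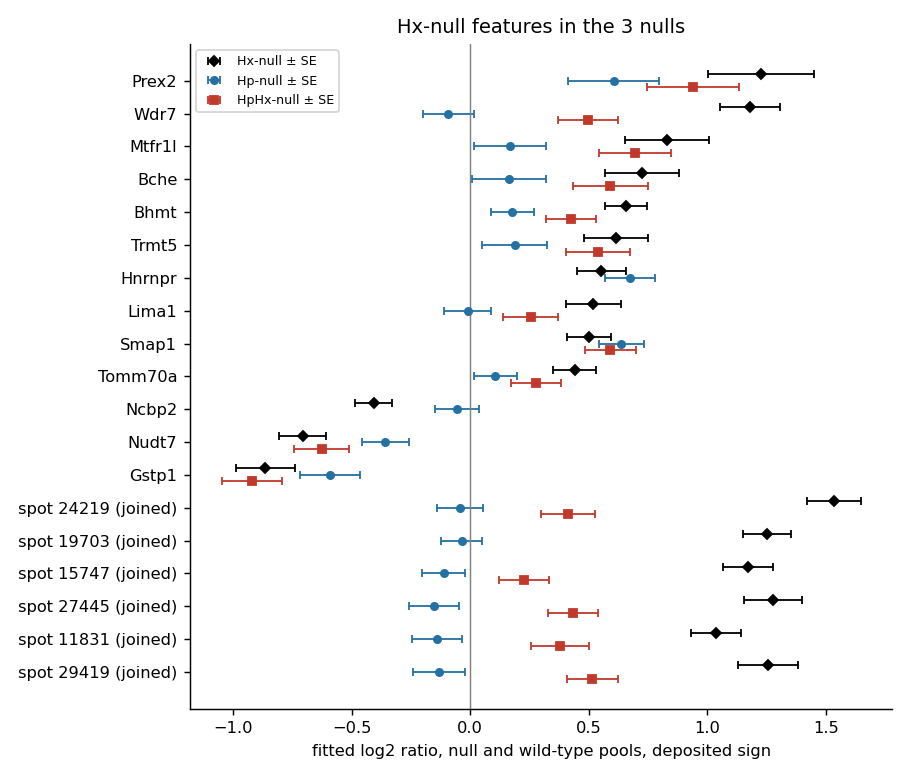
Fitted log2 ratios (horizontal axis, deposited sign) with their SE for the 13 named genes and 6 clones of the joined alpha-globin entry for Hx-null (black diamonds), Hp-null (blue circles) and HpHx-null (red squares). The 6 clones are those with the smallest p-values in Hx-null. They and Wdr7 lie above 1 in Hx-null and near 0 in Hp-null. Clones of the entry that are not drawn had Hx-null ratios down to 0.06. A missing point means too few arrays with a value.

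Read the other way, with the ratios turned by the labelled dye, 0 of 1865 features passed limma's test over the 12 arrays (0%), 239 had an unadjusted p under 0.05, and 12 of the 39 called features had the opposite sign. That fit had a labelled dye term and no set term. The set differences of the other nulls, which do not follow the dye, stayed in its residual. The 0 is therefore not the test that gave 39 with only the direction changed. On the 4 Hx-null arrays alone, 993 features (53.2%) passed when turned, 584 (31.3%) positive and 409 (21.9%) negative. For a feature that lacked 1 Hx-null value, the turned ratio over 12 arrays also depends on the dye term fitted with the other nulls. On the 4 Hx-null arrays alone, a turned ratio is read from the difference between the dyes. If the deposited ratios are Cy5 over Cy3, that difference is the ratio between the pools, and a shared sign is a dye effect. If they are null and wild-type ratios of fixed direction, the 2 parts change places. Those arrays cannot tell which reading holds. Of 1434 features on all 4 Hx-null arrays, 770 had 1 sign within each dye and the opposite sign between dyes, and 147 had the same sign on all arrays, 62 positive and 85 negative. The highest turned ratios among named genes on 4 arrays were those of Slc14a1, a urea transporter (1.37), Serpina1e (1.37) and Alb (1.30). Slc14a1 gave 1.54, 1.65, -1.40 and -0.91 as deposited, with a ratio of 0.22 (limma adjusted p = 0.497).

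**Figure D5:**
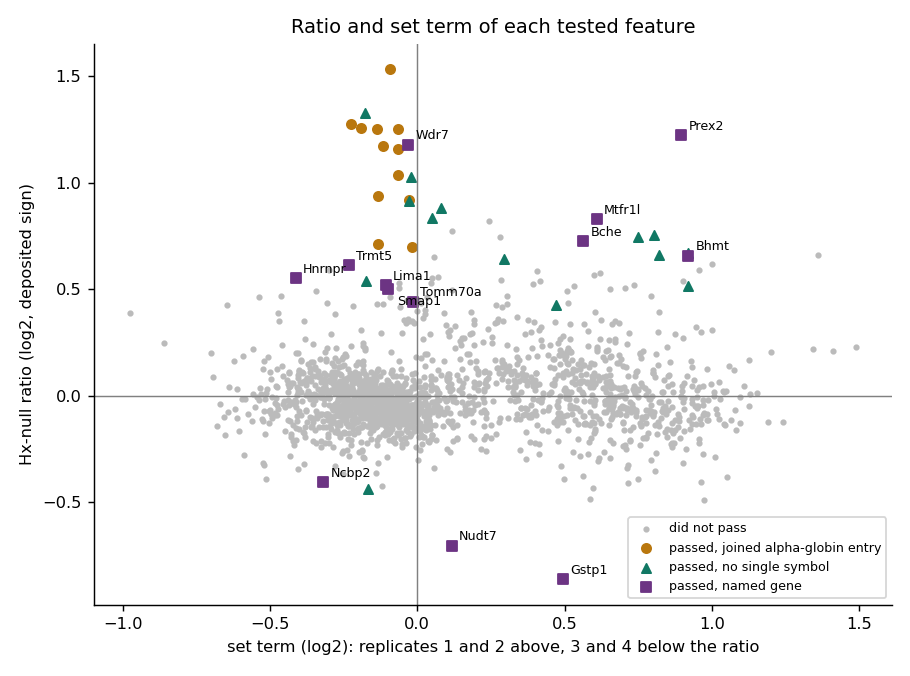
Hx-null log2 ratio with the deposited sign (vertical axis) against the set term (horizontal axis, log2) for each of the 1865 tested features, with called features coloured by kind. Called clones of the alpha-globin entry have set terms from -0.23 to -0.02, Wdr7 and Tomm70a lie near 0, and Prex2, Bhmt, Mtfr1l, Bche and Gstp1 lie to its right.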

How the data were processed

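Liver RNA pools of 3 null genotypes and of wild-type mice were hybridised to 12 two-colour cDNA arrays, 4 per null, with the dyes swapped. The deposited table holds 1 log ratio per spot, read here as log2; the authors' background correction, normalization, filter on spots, log base and ratio direction were given in none of the sources used here, and neither was the signal behind a value. Each array was centred on its median, duplicate spots and then clones of 1 gene were averaged, and features with at least 3 Hx-null arrays were tested. limma 3.58.1 in R 4.3.3 (lmFit, robust eBayes) fitted 1 coefficient per null and a set term over all 12 arrays, with Benjamini-Hochberg adjustment over all features. Turned ratios were fitted with a labelled dye term and no set term. Missing values were left out of a fit, not imputed. The fit was tested on simulated data with the spread of this comparison (1865 features). It recovered 54% of 50 changes of 1.25-fold, 90% at 1.5-fold and 100% at 2-fold, with 4.97% false calls. The simulated noise was independent, and the simulated set term had the form that was fitted. Real arrays followed the set unequally, with loadings such as -0.1155 on HpHx-null replicate 3 and -0.4205 on Hp-null replicate 4. These shares may therefore be too favourable for the real data.

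Probe names came from the platform table, read in reverse order; of measured clones, 1017 had 1 symbol, 65 several and 1069 none. Promoter windows are RefSeq's. Genes named by rule were those that passed, all measured heme, iron and globin genes, and the highest and lowest member of each other list with 3 or more tested. Mat1a, Agbl5, Kif11, Uhrf1 and Slc14a1 were named outside the rule, for their values. Alb, Ttr, Fcgr1 and Fcer1g were named as other members of a list or as cell type markers. The comparisons, genes and lists were chosen with earlier results of these data known. Alternatives changed the set term, scaling, filters, test, arrays, numbering and direction.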

Additional observations from a re-analysis of the deposited data

Results flagged for a closer look

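Tomm70a on Hx-null replicate 3 stood apart from the other 3 arrays (0.57, against 0.39 to 0.40). It was 1 of 43 features tested for a sample apart, and chance gives about 1 in 20.

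The difference Hp-null minus Hx-null passed limma's test in 21 features, all negative with the deposited sign. Among clones of the alpha-globin entry it was -1.58 at spot 24219, -1.29 at 19703, -1.28 at 15747, -1.43 at 27445, -1.18 at 11831, -1.39 at 29419, -1.32 at 30047, -1.24 at 17031, -1.02 at 11139 and -0.916 at 9247. Among clones without a symbol it was -1.39 at spot 25143, -1.23 at 8627, -1.16 at 27401, -1.15 at 15129, -0.843 at 25771, -0.584 at 29847 and -0.814 at 24907. Among named genes it was -1.27 for Wdr7, -0.824 for Mat1a, -0.664 for Ftl1 and -0.736 for Agbl5. The difference HpHx-null minus Hx-null passed at spots 24219 (-1.12), 25143 (-0.944) and 15747 (-0.945).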

How the results depend on the processing

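The count of 39 features in Hx-null was 12 with the labelled dye, 14 with no dye or set term, 71 with the loadings of the first component, 82 without centring, 18 with values on all 4 arrays, 3 with values on all 12, 19 by least squares, 7 against a minimum of 1.5-fold, 133 on the 4 Hx-null arrays alone and 0 turned. Quantile scaling gave 56, 44 positive and 12 negative, against 35 and 4. Leaving out 1 array gave 24 to 87. The 21 features of Hp-null minus Hx-null became 11, 10, 4, 2, 12, 1 and 0 with the labelled dye, no term, values on all 4 arrays, values on all 12, least squares, the 1.5-fold minimum and turned ratios, and 16 to 71 with 1 array left out. The 3 of HpHx-null minus Hx-null became 7 without centring and 0 with the labelled dye, no term, quantile scaling, values on all 4 or all 12 arrays, least squares, the 1.5-fold minimum or turned ratios, and 0 to 5 with 1 array left out. Turned, and fitted with the labelled dye in place of the set term, 0 features passed over 12 arrays and 993 on the Hx-null arrays alone. The labelled-dye count of 12 ran from 0 to 13 with 1 array left out, an alternative added after the data were seen, as was turning the 2 differences. With the set term removed, the deviations of same-numbered arrays correlated at r from -0.254 to 0.565, positive in 9 of 12 pairs and not in all, so the numbers were not taken to pair the arrays; with the replicate block the counts were 82, 37 and 9. Turned ratios had the opposite sign in Nudt7 (0.11), Gstp1 (0.64), Smap1 (-0.18), Hnrnpr (-0.55), Tomm70a (-0.045), Trmt5 (-0.27) and spots 30047 (-0.031), 11139 (-0.016), 16525 (-0.15), 9247 (-0.33), 6697 (-0.19) and 3091 (-0.12). Spots 30047, 11139, 9247, 6697 and 3091 lacked an Hx-null value, so their turned sign also depends on the fitted dye term. In the other settings in which each called feature was followed, none changed sign. The cause of these shifts was not tested, apart from fewer features entering where values on all arrays were required. Signal over background was not analysed here.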
